A study of Homo sapiens with 28 samples.

Results

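The comparison described here is the effect of the compound IBET151-VHL in the nuclear fraction minus its effect in the cytoplasmic fraction of MDA-MB-453, a cell line from human breast cancer. It used 12 of the 28 samples of the series, chosen by their labels: 3 nuclear and 3 cytoplasmic libraries of cells given DMSO, and 3 of each from cells given IBET151-VHL. Every culture had its compound or DMSO for 3 h and 0.1 mM 4-thiouridine for the last 60 min, and 10% Drosophila S2 cells were mixed in before the cells were opened with digitonin. The supernatant was the cytoplasmic fraction and the pellet the nuclear one, so RNA bound to membranes that stay with the pellet counts as nuclear. The labels give no dose, and nothing in them says that replicates were separate cultures, so p-values measure the spread between these samples, which may be partly technical.

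IBET151 is an inhibitor of the BET bromodomain proteins, which bind acetylated chromatin and help RNA polymerase II to move from pausing into elongation. VHL is the substrate receptor of a ubiquitin ligase, and compounds that join a BET ligand to a VHL ligand are used to have BET proteins degraded. A messenger RNA is made, spliced and polyadenylated in the nucleus and is then exported through nuclear pores by adaptors and the NXF1 receptor. The labelled uridine is read as C after alkylation, so reads with T-to-C changes (T>C reads) are used as a measure of RNA made in the labelling time. Such RNA reaches the cytoplasm only after export. The share of T>C reads from other sources was not measured in these libraries. A loss of synthesis lowers T>C reads in both fractions, and the difference between the fractions describes how the loss is shared between them.

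All values are the deposited ones, scaled by the authors to ERCC RNA that was added per mass of extracted RNA, so a level is relative to the mass of RNA in its fraction, and levels per cell are not known. In these bulk fractions, fewer nuclei or cells and less RNA in each cannot be told apart. The 12 libraries held 17851589 to 35456271 reads in the nucleus and 31619292 to 50793337 in the cytoplasm, of which 214725 to 1928012 and 82264 to 379401 were T>C reads. Nuclear replicate 1 stood apart in both groups, with a summed value of 22304000 in DMSO and 13858000 in IBET151-VHL against 39839100 to 67900700 in the other 4 nuclear libraries. The nuclear T>C share of DMSO also spread widely, at 8.02%, 6.34% and 2.25% of the summed value in replicates 1, 2 and 3, against 1.72%, 1.33% and 1.10% in IBET151-VHL. In the cytoplasm it was 0.818%, 0.782% and 0.747% in DMSO and 0.235%, 0.260% and 0.251% in IBET151-VHL, and the groups did not overlap in either fraction. The luminal genes ERBB2, GATA3 and KRT18 were highly expressed, with 61124, 103606 and 43418 in the DMSO nucleus, while the basal genes KRT5, KRT14 and TP63 stood at 3.44, 2.46 and 125. Of the stromal and mesenchymal markers, VIM (1.90) and COL3A1 (0.948) were near 0, but COL1A1 (5119) and CDH2 (1135) were clearly present. The nuclear RNA MALAT1 averaged 38870 in the nuclear and 2138 in the cytoplasmic DMSO libraries.

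Genes were judged by their mean T>C value over the 6 cytoplasmic libraries compared, apart for those of 20 or more and those below. Of the 12067 genes tested in T>C reads, 1069 had 20 or more. In these 1069 genes T>C reads fell in both fractions: 960 fell (89.8%) and 5 rose (0.468%) in the nucleus, and 975 fell (91.2%) and 3 rose (0.281%) in the cytoplasm. The fall was larger in the cytoplasm, with a median effect of -3.88 on the log2(value + 1) scale against -2.82 in the nucleus, so that the median difference, nuclear minus cytoplasmic, was 0.89. The 3 replicate numbers gave medians of 0.80, 0.95 and 0.76, and leaving out 1 library moved the median more, from 0.57 without IBET151-VHL Nuc replicate 2 to 1.25 without IBET151-VHL Nuc replicate 1. In all, 827 of the 1069 differences (77.4%) were above 0. The difference itself passed at an adjusted p under 0.05 (limma, Benjamini-Hochberg over all genes tested) in 95 genes as higher (8.89%) and in 21 as lower (1.96%).

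All 95 higher genes fell in the cytoplasm, and 78 of them also fell in the nucleus, while 17 had no nuclear change that passed. All 21 lower genes fell in the nucleus, and 4 of them fell in the cytoplasm. These counts depended on the test. With the count tests on the recovered reads, edgeR called 5 genes higher (0.468%) and 0 lower (0%), and DESeq2 called 59 higher (5.52%) and 3 lower (0.281%), although all 95 and all 21 had the same sign in both. DESeq2 gave no adjusted p to 4 of the 95 and 7 of the 21. With a pseudocount of 5 in place of 1, 42 genes passed as higher and 66 as lower, and the median difference was 0.13. Of the 95 higher genes 24, and of the 21 lower genes 4, passed in every one of the 12 fits that left out 1 library.

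**Figure D1:**
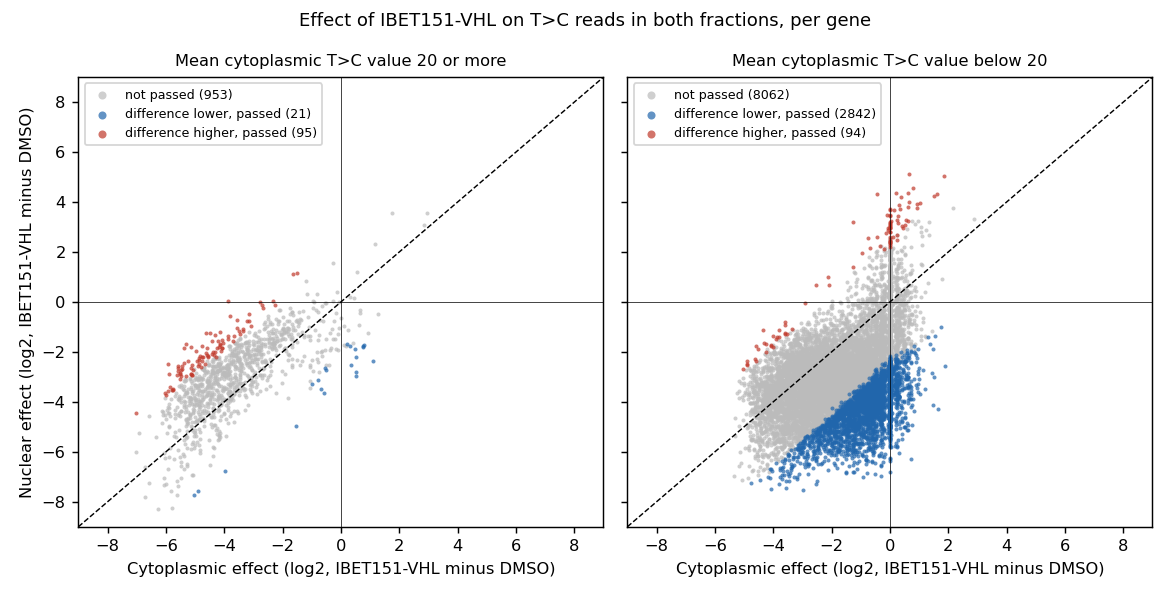
Effect of IBET151-VHL on the T>C value of each gene in the cytoplasm (x axis) and the nucleus (y axis), both as log2 differences from DMSO on the log2(value + 1) scale, for genes of 20 or more (left, 1069 genes) and below 20 (right, 10998 genes). On the dashed line both effects are equal. In the left panel most points lie above it, and the 95 higher genes (red) lie left of 0, where the cytoplasm fell, while in the right panel the 2842 lower genes (blue) lie below it.

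Among the higher genes of 20 or more, the largest difference was that of KLF6, a zinc-finger transcription factor with a short-lived mRNA. Its nuclear T>C values were 749, 1684 and 841 in DMSO and 807, 1339 and 1081 in IBET151-VHL, and its cytoplasmic ones were 179, 209 and 157 in DMSO and 9.42, 15.6 and 10.1 in IBET151-VHL. The nuclear groups overlapped, and the cytoplasmic groups did not. The difference was 3.91 ± 0.74 (log2 ± SE, adjusted p = 0.000128), made of 0.05 in the nucleus and -3.86 in the cytoplasm. KLF6 was also among the 5 genes that edgeR called (3.93, adjusted p = 0.0149). Its T>C share of all its reads fell in both fractions, from 36.7% to 18.1% in the nucleus and from 16.4% to 3.04% in the cytoplasm, and the difference on the scale of the share did not pass (1.31, adjusted p = 0.225).

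RPLP0, which encodes a protein of the large ribosomal subunit, was also among the 10 largest. It stood at 948, 1795 and 1048 in the DMSO nucleus and at 568, 1176 and 824 in the IBET151-VHL nucleus, while in the cytoplasm it went from 167, 152 and 120 to 12.1, 13.8 and 4.77. Again only the cytoplasmic groups were apart, and the difference was 3.25 ± 0.76 (adjusted p = 0.00129, and 0.051 with edgeR). PNRC2, a cofactor of mRNA decapping and of nuclear receptors, had cytoplasmic values of 147, 238 and 139 in DMSO and 4.04, 6.92 and 7.16 in IBET151-VHL. Its nuclear values were 415, 1139 and 674 in DMSO and 172, 586 and 237 in IBET151-VHL, which overlapped, and the difference was 3.39 ± 0.82 (adjusted p = 0.00166).

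Other genes near the top fell in both fractions, more so in the cytoplasm. NRARP, a feedback inhibitor of Notch signalling, had a nuclear effect of -1.24 and a cytoplasmic one of -4.49 (difference 3.24 ± 0.85, adjusted p = 0.00352). PPP1R3D, a glycogen-targeting subunit of protein phosphatase 1, had -1.82 and -5.14 (3.32 ± 0.81, adjusted p = 0.00195). RNPS1, a splicing activator of the exon junction complex, was left with 3 T>C reads over the 3 cytoplasmic IBET151-VHL libraries, against 260 in DMSO. RAB11A, a GTPase of recycling endosomes, was left with 2, against 347, so the sizes of their differences, 3.61 and 3.45, depend on the pseudocount. The replication licensing factor CDT1 had 0 such reads in the IBET151-VHL cytoplasm and 216 in DMSO. Of the 95 higher genes, 16 had 3 reads or fewer there, of which 3 genes had 0. RNPS1, RAB11A and CDT1 were among the 5 genes that edgeR called, at 4.41, 4.59 and 5.94 (adjusted p = 0.0393, 0.0487 and 0.0487). PNRC2 was also among those 5 (3.67, adjusted p = 0.0338 with edgeR). FAM111B, ZBTB7A and CSNK1A1 completed the 10 genes with the largest differences, at 3.5, 3.03 and 3.00 on the log2 scale.

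**Figure D2:**
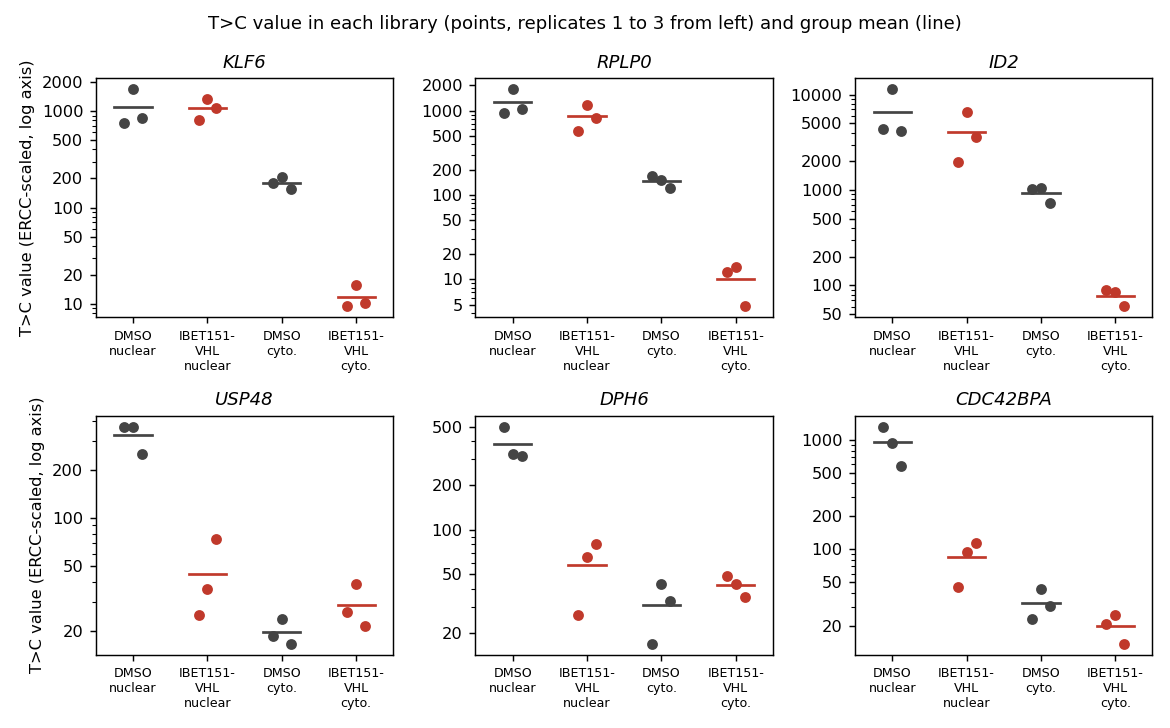
T>C values of 6 genes in each library (points, replicates 1 to 3 from left; log axes that differ between genes) with group means (lines), DMSO in grey and IBET151-VHL in red. In the upper row KLF6, RPLP0 and ID2 fell in the cytoplasm with overlapping nuclear groups, and in the lower row USP48, DPH6 and CDC42BPA fell in the nucleus with overlapping cytoplasmic groups.

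Among immediate-early and other short-lived mRNAs, 34 of 49 tested genes had 20 or more, of which 6 were higher and 1 lower, with a median difference of 0.96. Over all 1069 genes 8.89% were higher and 1.96% lower, with a median of 0.89. The 6 were KLF6, ID2, IER2, MCL1, IER5 and BTG1. ID2, an inhibitor of basic helix-loop-helix factors, had cytoplasmic values of 1027, 1041 and 740 in DMSO and 90.1, 84.7 and 60.3 in IBET151-VHL. Its nuclear values of 4393, 11394 and 4192 in DMSO and 1989, 6589 and 3641 in IBET151-VHL overlapped. The difference of ID2 was 2.85 ± 0.74 (adjusted p = 0.00317). IER2, an immediate-early gene, had a nuclear effect of 1.16 that did not pass and a cytoplasmic fall of 1.51 on the log2 scale (difference 2.67 ± 0.86, adjusted p = 0.0162). MCL1, an anti-apoptotic BCL2 protein, fell by 2.21 in the nucleus and fell by 4.73 in the cytoplasm (difference 2.52 ± 0.80, adjusted p = 0.0154). ATF4, the transcription factor of the integrated stress response, was the 1 higher gene among 10 heat shock and unfolded protein genes (2.66 ± 0.74, adjusted p = 0.0057), with 835, 610 and 517 in the DMSO cytoplasm and 61.9, 83.8 and 71.6 in the IBET151-VHL cytoplasm.

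EGR1 and FOS, which encode immediate-early transcription factors, rose in both fractions. EGR1 went from 229, 541 and 609 to 3513, 4022 and 8981 in the nucleus and from 89.4, 38 and 129 to 952, 241 and 935 in the cytoplasm, with no overlap in either. Its nuclear rise was 3.57 and its cytoplasmic rise 2.96, and the difference did not pass (0.61 ± 0.83, adjusted p = 0.618). FOS rose by 3.08 and 2.85, with a difference of 0.23 ± 1.16 (adjusted p = 0.905). H1-2, a linker histone gene, was the third gene that rose in the cytoplasm, by 1.75, beside 3.56 in the nucleus.

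Of the polyadenylated histone genes, 10 of 15 tested had 20 or more, all 10 differences were above 0 (77.4% over all 1069), and 2 passed as higher (8.89% over all 1069). Their median nuclear effect was 0.01 and their median cytoplasmic effect -1.63. H1-10, a linker histone gene, was among those that passed (2.75 ± 0.85, adjusted p = 0.0127), with a nuclear effect of 1.12 that did not pass and a cytoplasmic fall of 1.63 on the log2 scale. Reads of histone genes may be shared between near-identical copies. Of 6 genes induced by BET inhibitors 2 were higher, among them HEXIM1, an inhibitor of P-TEFb, the kinase that releases paused polymerase. HEXIM1 fell by 2.90 in the nucleus and by 5.13 in the cytoplasm, to 5 reads (2.24 ± 0.83, adjusted p = 0.0379). It did not pass in 11 of 29 alternatives, among them edgeR (3.01, adjusted p = 0.156), a pseudocount of 5 (0.84, adjusted p = 0.309) and leaving out any of 7 single libraries, DMSO Nuc replicate 1 (1.99, adjusted p = 0.0912) being one.

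Of the ribosomal protein genes, 53 of 76 tested had 20 or more, of which 3 were higher and 1 lower, with a median difference of 0.80, beside 8.89% higher, 1.96% lower and a median of 0.89 over all 1069. Beside RPLP0, the higher ones were RPS20, at 212, 554 and 427 in the DMSO nucleus and 252, 538 and 394 in the IBET151-VHL nucleus (difference 2.38 ± 0.78, adjusted p = 0.0186), and RPL10A (2.21 ± 0.78, adjusted p = 0.029). RPL30 was the lower one. It went from 1142, 2538 and 1896 to 286, 811 and 723 in the nucleus, without overlap, while its cytoplasmic values of 450, 1148 and 1017 in DMSO and 903, 917 and 990 in IBET151-VHL overlapped (-1.89 ± 0.73, adjusted p = 0.0469). Ribosomal protein genes have many processed copies in the genome, so their counts are uncertain where reads could be split.

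The lists of RNA-processing genes were short, and 8.89% of all 1069 genes were higher. Of 16 nuclear speckle and SR protein genes, 1 was higher, RNPS1, with a list median of 1.08. Of 8 snoRNA host transcripts 1 was higher, SNHG1 (2.52 ± 0.79, adjusted p = 0.0132), with a median of 1.03. None of 5 mRNA export factors (unadjusted, 1 higher and 2 lower) and none of 3 nuclear pore genes (unadjusted, 0 higher and 1 lower) passed in limma, and their medians were 0.13 and 0.44. NXT1, the partner of NXF1 in export, fell by 4.25 in the nucleus and by 4.38 in the cytoplasm, with a difference of 0.13 ± 0.98 (adjusted p = 0.937).

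In lists of other functions, read against the same 8.89% higher and 1.96% lower, 2 of 7 cell division genes (RRM2 and AURKA), 1 of 6 sterol synthesis genes (IDI1), 1 of 7 ribosome biogenesis and MYC target genes (EIF4A1), 1 of 4 P-TEFb and elongation factor genes (HEXIM1) and 2 of 21 ZNF genes were higher and none was lower. MCL1 was the only gene of 20 or more on the list of BCL2 family and cell death regulators. None of 11 luminal and HER2 genes, 7 nuclear-encoded respiratory chain genes, 5 mRNAs translated at the ER, 5 hypoxia genes, 4 p53 targets or 2 detained-intron genes passed in limma. At an unadjusted p under 0.05 the luminal list held 2 higher and 1 lower, the p53 list 1 higher, and the other 4 lists 0. GATA3, the luminal lineage factor, fell by 3.97 in the nucleus and by 5.15 in the cytoplasm (1.18 ± 0.75, adjusted p = 0.239). MYC fell by 4.36 and 4.76 (0.40 ± 1.02, adjusted p = 0.805), with 2 T>C reads left in the cytoplasm. The nuclear-retained RNA NEAT1, which builds paraspeckles, had 1991, 4364 and 1189 in the DMSO nucleus and 887, 2749 and 2994 in the IBET151-VHL nucleus, which overlapped, and a difference of 0.47 ± 0.87 (adjusted p = 0.719).

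**Figure D3:**
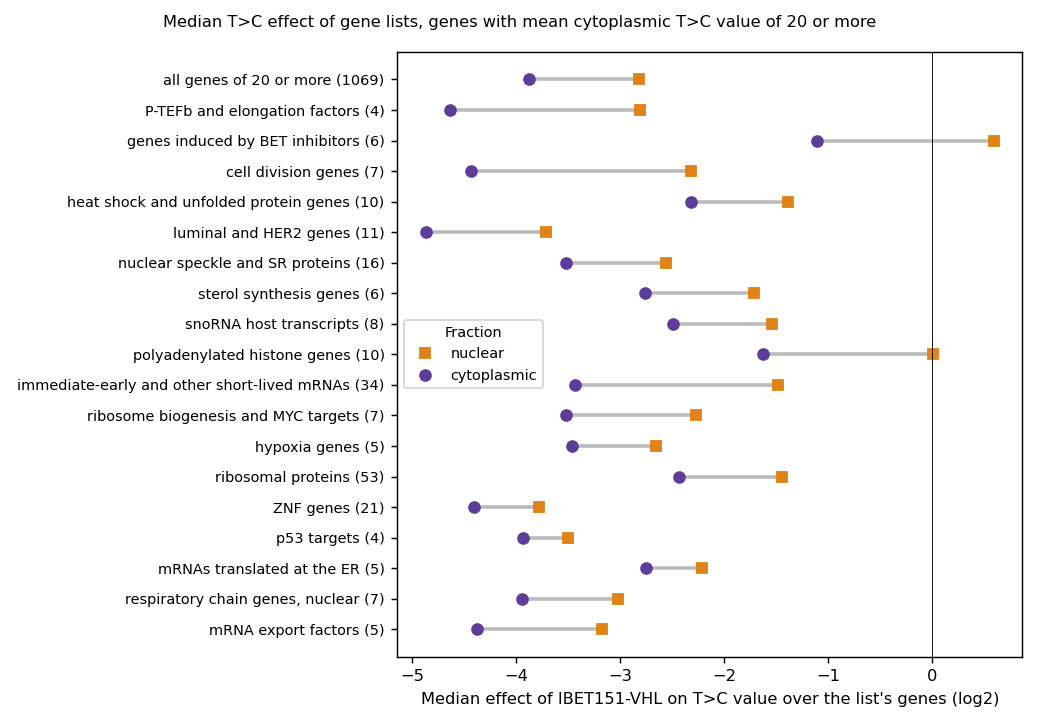
Median effect of IBET151-VHL on T>C values (log2, x axis) in the nucleus (orange squares) and the cytoplasm (violet circles) over the genes of each list with a mean cytoplasmic T>C value of 20 or more (number in brackets, lists of at least 4 such genes), with all 1069 genes on top. The square lies right of the circle in every list drawn, and also over all 1069 genes (-2.82 and -3.88).

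The genes of 20 or more with a lower difference were set apart by a cytoplasm that fell little or not at all. Their median cytoplasmic effect was 0.21 and their median nuclear effect -2.71, against -4.63 and -2.08 in the 95 higher genes, which is a description of genes chosen by that difference. USP48, a deubiquitinase, went from 369, 366 and 251 to 24.8, 36.3 and 73.9 in the nucleus, with no overlap. In the cytoplasm it had 18.5, 23.6 and 16.6 in DMSO and 26.2, 38.9 and 21.5 in IBET151-VHL, which overlapped (difference -3.47 ± 0.84, adjusted p = 0.00162). DPH6, an enzyme of diphthamide synthesis, went from 499, 324 and 316 to 26.4, 65.7 and 80.6 in the nucleus, beside 16.9, 43.1 and 33.1 and then 48.4, 43.2 and 35.2 in the cytoplasm. The cytoplasmic groups of DPH6 overlapped, and the difference was -3.33 ± 0.84 (adjusted p = 0.00266). CDC42BPA, a kinase downstream of CDC42, fell by 3.49 in the nucleus and had a cytoplasmic effect of -0.68 that did not pass (-2.81 ± 0.84, adjusted p = 0.0098). USP48, DPH6, CDC42BPA and HDGFL3 were the 4 lower genes that passed in all fits without 1 library, and none of them passed with edgeR.

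The classes also differed in the share of T>C reads, a measure tied to the values that chose them. The median share of T>C reads in a gene's cytoplasmic reads was 2.14% in DMSO and 2.52% in IBET151-VHL over the 21 lower genes, and 1.84% and 0.0587% over the 95 higher ones. In DPH6 the cytoplasmic share was 3.53% and 4.81%, beside a nuclear share that went from 15% to 3.90%. The share of T>C reads that do not come from labelling was not measured in these libraries, all of which had 4-thiouridine, and its part in these values was not tested. When the difference was taken on the T>C share of each gene, 71 of the 1069 genes were higher and 3 lower.

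A few lower genes fell in both fractions, more so in the nucleus on the log2(value + 1) scale. SPRY1, a feedback inhibitor of receptor tyrosine kinase signalling, went from 110, 304 and 368 to 0.776, 0 and 0 in the nucleus, which is 1 read in all. In the cytoplasm it went from 54.7, 58.3 and 46.6 to 2.69, 0 and 0.597 (difference -2.68 ± 0.99, adjusted p = 0.0362). Few reads were left in either fraction, so the size of this difference rests on the DMSO values and the pseudocount. Without DMSO Nuc replicate 3 this was -2.35 (adjusted p = 0.0804), which did not pass, edgeR gave -3.54 (adjusted p = 0.398), and DESeq2 gave it no adjusted p. KDF1 also kept 1 nuclear read, so the size of its difference depends on the pseudocount too. THBS1, which encodes the matrix protein thrombospondin 1, kept 83 and went from 3138, 5102 and 4588 to 20.2, 69.2 and 38.1 in the nucleus (difference -2.78 ± 0.88, adjusted p = 0.0152).

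Genes below 20 made up 91.1% of those tested, 10998 genes, and had a median difference of the opposite sign. There 94 were higher (0.855%) and 2842 lower (25.8%) in limma, and over all 12067 genes 189 were higher (1.57%) and 2863 lower (23.7%). The count tests called far fewer genes below 20. DESeq2 called 19 higher (0.173%) and 8 lower (0.0727%), and edgeR called 3 higher (0.0273%) and 6 lower (0.0546%). The median difference below 20 was -1.42, from -3.14 in the nucleus and -1.45 in the cytoplasm. In 1237 of the 2842 lower genes (43.5%) the cytoplasm held 3 T>C reads or fewer over the 3 libraries of each group, so the difference there holds the nuclear fall alone. In 2501 of the 2842 the IBET151-VHL cytoplasm held 3 T>C reads or fewer, beside 5857 of the 8062 genes not called. A gene could enter the test by its nuclear values alone. With few cytoplasmic reads, a lower difference was therefore partly set by how the genes were chosen. The median lower gene had 4 reads in the DMSO cytoplasm and 110.5 in the DMSO nucleus. RGL2 was an example, with 151, 348 and 68.9 in the DMSO nucleus, 1 read in the IBET151-VHL nucleus and 0 reads in all 6 cytoplasmic libraries, which allows up to 3 reads over each group.

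The sign followed the level. The median difference was -2.26 in genes with a mean cytoplasmic T>C value under 1, -1.63 from 1 to 5, -0.44 from 5 to 10, 0.29 from 10 to 20, 0.78 from 20 to 50, 1.14 from 50 to 100 and 1.00 from 100. Over these classes the median cytoplasmic effect went from -0.20 to -4.07 (20 to 50) and -2.70 (100 or more), while the nuclear one stayed between -3.42 and -1.73. The summed T>C values of the genes below 20 were lower by 3.37 in the cytoplasm and 2.77 in the nucleus on the log2 scale. That is a difference of 0.60 (p = 0.2, exact permutation test, where 3 against 3 allows no p under 0.1). The median and the sum differed in sign for these genes. On the log2(value + 1) scale a gene near 0 in DMSO can fall by little, and the part of this in the sign was not tested. With T>C values scaled to the median ratio of the human genes within each fraction, the median over all genes tested moved from -1.24 to 0.06 and the split from 189 higher and 2863 lower to 1183 and 1071. The scaling brings the median ratio of genes above 0 in every library of a fraction to a common level. A median nearer 0 therefore follows in part from the scaling itself. In genes of 20 or more the split with this scaling was 319 higher and 30 lower. When the genes were split on the cytoplasmic libraries of the other compounds, a set not used in the contrast, 802 genes had 20 or more, with 84 higher, 21 lower and a median of 0.96.

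**Figure D4:**
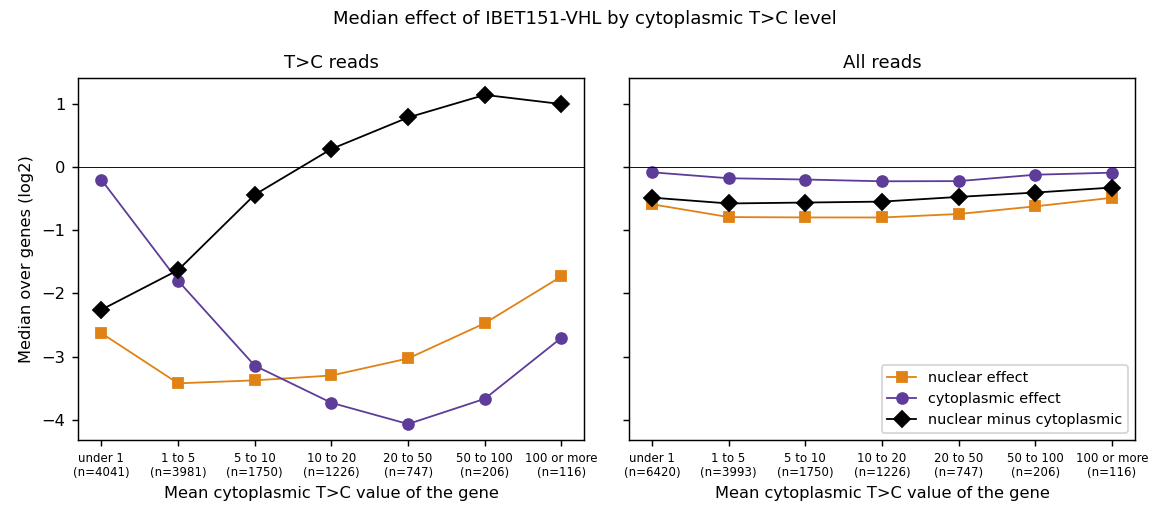
Median effect of IBET151-VHL (log2, y axis) in the nucleus, in the cytoplasm and as their difference, over genes in 7 classes of mean cytoplasmic T>C value (x axis, number of genes in brackets), for T>C reads (left) and all reads (right). In T>C reads the difference went from -2.26 in the lowest class to 1.14 in the class of 50 to 100, and in all reads it lay between -0.58 and -0.33.

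Of the genes below 20, the 5 higher ones with the smallest p included THEMIS and H3C12. THEMIS, known for its role in T cell development, had 2.78, 1.77 and 3.83 in the DMSO nucleus and 132, 74.4 and 213 in the IBET151-VHL nucleus, without overlap, and 11 reads in all over the 6 cytoplasmic libraries (4.48 ± 1.02, adjusted p = 0.000958). H3C12, a histone H3 gene, went from 15.8, 30.1 and 13.4 to 69.1, 348 and 231 in the nucleus (4.45 ± 1.01, adjusted p = 0.000909). The other 3 were KLHL3, ANKRD45 and DYSF, each with 3 or fewer cytoplasmic T>C reads in either group. The lower 5 included SHFL, RGL2, ARAP1 and SLCO2A1, also with 3 or fewer. Of the genes below 20, 25.8% were lower, and the interferon response genes (0 higher and 6 lower of 21) and P-TEFb and elongation factors (0 and 7 of 26) were near that share. One of the latter was NELFCD, a subunit of the pausing factor NELF, which had 0 cytoplasmic T>C reads in IBET151-VHL and 20 in DMSO. Other lists lay further from that share, such as luminal and HER2 genes (8 lower of 16) and immediate-early and other short-lived mRNAs (0 lower of 15). No list was tested as a set, and the share of 25.8% carries the limit of few cytoplasmic reads given above. None of 6 basal, stromal and immune markers tested passed in limma, nor at an unadjusted p under 0.05.

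Summed over all genes, T>C values fell by 2.37 in the nucleus and fell by 1.71 in the cytoplasm on the log2 scale, the reverse of the order seen in the genes of 20 or more. The log2 ratio of nuclear to cytoplasmic sum was 2.99, 3.53 and 2.96 in DMSO and 1.80, 2.89 and 2.78 in IBET151-VHL, with libraries matched by replicate number. The 3 ratios of IBET151-VHL lay below those of DMSO, and the difference was -0.67 (exact permutation test, 2-sided, p = 0.1, the smallest that 3 against 3 allows, and 0.3 adjusted over 3 sums). Leaving out 153 genes whose T>C share was 20% or more in the DMSO cytoplasm turned it to 0.44 (p = 0.3, exact permutation), with falls of 2.45 in the nucleus and 2.89 in the cytoplasm. Those genes held 19.3% to 21.6% of the cytoplasmic T>C sum in DMSO and 63.2% to 65.9% in IBET151-VHL.

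SNX6 and TAFA2 had the highest T>C values among them, with shares that were alike with and without the compound. SNX6, a sorting nexin, had a mean cytoplasmic T>C value of 30318 and a cytoplasmic T>C share of 47.8% in DMSO and 47.7% in IBET151-VHL. TAFA2, which encodes a secreted peptide, had 11374 and shares of 95.5% and 95.7%. Their nuclear shares were 45.4% and 45.5%, and 93.5% and 92.8%. The T>C share of all summed reads showed the same dependence: its difference was -0.18 (p = 0.8, exact permutation) with all genes and 0.92 (p = 0.2) without the 153. Taking only genes below 20 gave 0.60 for the T>C sum (p = 0.2, exact permutation), and taking genes of 20 or more without those of high share gave 0.65 (p = 0.3), so no sum passed in either direction. The calls by gene hardly used these genes: without them 94 of 1056 genes of 20 or more were higher and 21 lower.

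**Figure D5:**
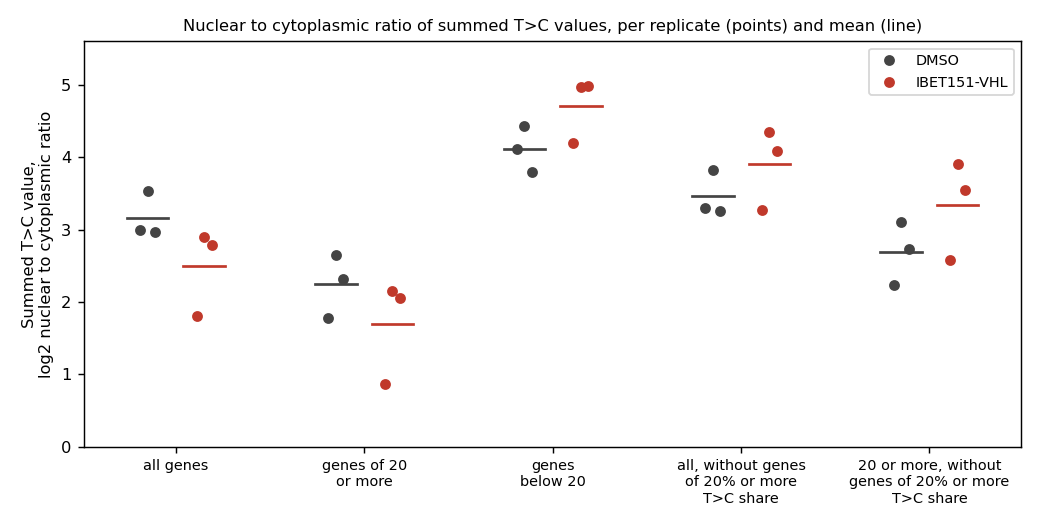
Log2 ratio of the nuclear to the cytoplasmic summed T>C value (y axis) per replicate number (points, 1 to 3 from left) with means (lines), DMSO in grey and IBET151-VHL in red, for 5 sets of genes (x axis). With all genes the IBET151-VHL ratios lie below those of DMSO (difference -0.67), and without genes of 20% or more T>C share their mean lies above (0.44), with overlapping points.

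In all reads, which count old and new RNA together, the calls depended on whether the replicate number was used. Without it, 1 of 14458 genes tested was higher (0.00692%) and 0 lower (0%), and with it as a block within each fraction 95 were higher (0.657%) and 1418 lower (9.81%). Without the block, in the 1069 genes with a cytoplasmic T>C value of 20 or more, 0 were called by limma in either direction (0%), with 3 higher and 0 lower at an unadjusted p under 0.05, 0 calls by edgeR and 1 by DESeq2. The gene called without the block lay below 20, where 1 of 13389 was higher (0.00747%). It was FEZF1, a zinc-finger repressor of the developing forebrain, with 0 in all 3 DMSO nuclear libraries and 37.3, 48.4 and 35.8 in IBET151-VHL (difference 6.37 ± 1.08, adjusted p = 0.00432, a size that depends on the pseudocount), and 11 reads in the DMSO and 6 in the IBET151-VHL cytoplasm. The median difference in genes of 20 or more was -0.44, and it differed between replicate numbers (-0.70, 0.06 and -0.71). It was 0.16 without IBET151-VHL Nuc replicate 1, whose nuclear sum was low.

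Same-numbered libraries deviated together in all reads within each fraction, with correlations of at least 0.279 between nuclear and 0.253 between cytoplasmic pairs. With the replicate number as a block within each fraction, 12 genes of 20 or more were higher (1.12%) and 88 lower (8.23%). With median-ratio scaling, 23 were higher (2.15%) and 0 lower. That scaling moved the median over all genes tested from -0.53 to 0.03, in part by its construction. KLF6 passed with the block and with the scaling. Its nuclear values in all reads were 2031, 4141 and 2746 in DMSO and 4489, 6683 and 6625 in IBET151-VHL, and its cytoplasmic ones went from 1121, 1363 and 830 to 539, 373 and 242. KLF6 groups were apart in both fractions, in opposite directions, and the difference was 2.60 ± 0.69 (adjusted p = 0.39, and 1.35e-08 with the block). ID2 had a difference of 1.74 ± 0.79 (adjusted p = 0.900), with 9876, 11169 and 6728 in the DMSO cytoplasm and 1548, 1765 and 1178 in the IBET151-VHL cytoplasm, which did not overlap. NEAT1 had 8234, 19805 and 12205 in the DMSO nucleus and 14141, 28640 and 30498 in the IBET151-VHL nucleus, which overlapped (1.31 ± 0.76, adjusted p = 0.900). RPLP0, so far apart in T>C reads, had a difference of -0.15 ± 0.90 in all reads (adjusted p = 0.959), and T>C reads were 0.173% of its cytoplasmic reads in DMSO.

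The same difference in cells given JQ1-VHL, named for the BET inhibitor JQ1, shares the DMSO libraries, so only the direct contrast of the compounds is given as a test. In genes of 20 or more the median difference of JQ1-VHL was 1.11, beside 0.89 for IBET151-VHL. Between them 0 of 1069 genes passed in either direction in limma (0%), with 2 higher and 47 lower in IBET151-VHL at an unadjusted p under 0.05. KLF6 differed by 1.04 ± 0.74 (adjusted p = 0.549). Against the inhibitor IBET151 itself, which had 2 replicates per fraction, 10 genes were higher (0.935%) and 6 lower (0.561%) in IBET151-VHL. The median difference of IBET151 was 0.58, and none of the 1069 genes passed for it in limma.

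Gene models give the classes in genes of 20 or more a length. Matched by identifier to GENCODE 29, 94 of the 95 higher genes had a median span of 19.6 kb and 6 exons in their largest model, as had the 943 matched genes that were not called (19.6 kb, 6 exons). The 20 matched lower genes had a median of 51.6 kb and 8.5 exons, without a test. Genes shorter than 5 kb were 21.3% of the higher, 5% of the lower and 16.3% of the genes not called. The nuclear to cytoplasmic ratio of all reads in DMSO was alike in the 3 classes, with median log2 ratios of 0.34, 0.43 and 0.35.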

How the data were processed

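Per the labels' protocols, RNA from each fraction was alkylated with iodoacetamide and made into QuantSeq-type 3′ mRNA libraries, read from 1 end over 100 bp. The submitters' processing notes name bcl2fastq, Trimmomatic 0.39, HISAT2, HTSeq and DESeq2 with the builds dm3, GRCh37 and hg19. The criteria for a T>C read are not given in the sources used here. The authors deposited a signal scaled to ERCC RNA, for 13029 genes in T>C reads and 16482 in all reads. Within a library every value was a multiple of the worth of 1 read, and 100% came out as whole reads within 0.001, so counts were recovered for the count tests. The deposited values were analysed as they are.

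Genes with a value of at least 5 (T>C) or 10 (all reads) in at least 2 libraries were fitted with limma 3.58.1 (R 4.3.3, variance trend) on log2(value + 1), all 28 libraries in 10 groups. The contrast was (IBET151-VHL minus DMSO, nuclear) minus (IBET151-VHL minus DMSO, cytoplasmic), with Benjamini-Hochberg adjustment over all genes tested. Fold changes of low genes are understated on this scale. Sums were compared by exact permutation tests. Alternatives were pseudocounts, filters, scalings, library weights, replicate blocks, edgeR 4.0.16, DESeq2 1.42.0, other splits and leaving out libraries. The fit was tested on simulated counts. The contrast, the members and the gene lists were chosen with earlier results of these data known.

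Genes were named by rule: in each table the 10 largest differences per direction that passed with drug and DMSO ratios apart in genes of 20 or more (in all reads also a mean of 50 in each fraction), filled up by the smallest p. Below 20 the 5 smallest p per direction were taken, from each list up to 4 members, and a set of fixed genes. CDT1, RPL30, RPS20, H1-2, EIF4A1, IER2, BTG1, SNX6 and TAFA2 were also named after their values were seen. Genes tested without a symbol, 190 in T>C reads and 306 in all reads, were not named.

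The replicate numbers paired libraries in all reads within each fraction, where every same-numbered pair of deviations from the group means correlated above 0.1, and did not in T>C reads (r down to 0.0473 for nuclear and 0.00417 for cytoplasmic pairs). This pairing was checked for DMSO and IBET151-VHL only. By library number, IBET151 replicates 1 and 2 lie among replicates 2 and 3 of the other groups. The replicate number of IBET151 may therefore not match theirs. No coordinates are given, since the reference at hand is of another build. Some items that these rules would name are not reported here.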

Additional observations from a re-analysis of the deposited data

Results flagged for a closer look

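In 16 genes of 20 or more, the nuclear minus cytoplasmic effect on T>C reads differed between IBET151-VHL and IBET151, tested as 1 contrast in limma (adjusted p under 0.05, all 28 libraries, IBET151 with 2 replicates per fraction). It was higher in IBET151-VHL for KLF6 by 2.94 on the log2 scale, NRARP by 2.90, ZBTB7A by 2.74 and PNRC2 by 2.72. It was also higher for FAM111B by 2.64, RNPS1 by 2.63, RPLP0 by 2.60, FBXO33 by 2.53, PPP1R3D by 2.52 and HNRNPC by 2.39. The difference was lower for USP48 at -2.71, HDGFL3 at -2.84, TESMIN at -2.85, KDF1 at -3.51, SPRY1 at -3.59 and ZBTB7C at -3.74. KDF1 and SPRY1 had almost no T>C reads left in the IBET151-VHL nucleus, so the size of their values depends on the pseudocount. The genes were taken from those with 20 or more in the IBET151-VHL and DMSO cytoplasm, and doses are not in the labels.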

How the results depend on the processing

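All 95 higher and all 21 lower genes of 20 or more kept their sign in the 29 alternatives run on T>C reads, while the number that passed varied, from 116 to 349 with median-ratio scaling, 338 with the factors of all reads, 299 with library weights, 204, 271 and 200 with a replicate block (across fractions, within each fraction, by culture), 74 on T>C shares, 70 without replicate 1 of both nuclear groups, 62 with DESeq2, 56 with a split at 50, 43 with replicates 1 and 2, 5 with edgeR and 61 to 138 without 1 library. In T>C reads not every same-numbered pair of DMSO and IBET151-VHL correlated above 0.1 (nuclear pairs 0.131, 0.205 and 0.0473), so the block is given as a setting only. Filters, replicate blocks and the 12 libraries alone leave the estimates as they were, so the sign could not change there. The genes were also chosen by these same differences. The median of 0.89 was 1.09 and 0.13 with pseudocounts of 0.5 and 5, 1.23 with median-ratio scaling (also with the block), 1.47 with the factors of all reads, 1.20 with weights, 1.17 with edgeR, 1.20 with DESeq2, 1.27 on shares, 0.54 and 1.12 with splits at 10 and 50, and 0.57 to 1.25 without 1 library. Below 20, the 2936 calls were 1840 and 6170 with pseudocounts of 0.5 and 5, 1905 with median-ratio scaling (858 with the block), 1879 with the factors of all reads, 1928 without replicate 1 of both nuclear groups, 944 on shares, 27 with DESeq2, 9 with edgeR and 1781 to 3474 without 1 library. The median of -1.42 was -0.082 with median-ratio scaling (also with the block), -0.91 with the factors of all reads, -0.87 on shares, -0.37 with edgeR, -0.36 with DESeq2 and -1.72 to -1.10 without 1 library. In all reads the 0 calls of 20 or more were 23 with median-ratio scaling (26 with the block), 136 with weights, 100 with the block within each fraction, 1 with DESeq2 and 0 without any 1 library. The 1 call below 20 was 20 with a pseudocount of 5, 0 with the filter raised 5 times, 113 with median-ratio scaling (171 with the block), 3 in the 12 libraries alone, 3166 with weights, 29, 1413 and 6 with the blocks, 5 with DESeq2, 0 with replicates 1 and 2 and 1 to 2 without 1 library. The medians of all reads turned from -0.44 to 0.11 and from -0.54 to 0.018 with median-ratio scaling, with and without the block, and ranged from -0.99 to 0.16 and from -0.90 to -0.044 without 1 library. Part of that turn follows from how the scaling is built. The summed T>C difference of -0.67 turned to 0.44 without the 153 genes of high share, 0.60 with genes below 20 and 0.65 with genes of 20 or more without those of high share. With genes of 20 or more the summed T>C difference was -0.56, and with median-ratio scaling -0.11. It ranged from -0.87 to -0.32 without 1 library. In all 3 sums, leaving out 1 library also removed the library of the same number and group in the other fraction. The summed difference of all reads (-0.48) turned to 0.0746 with median-ratio scaling and ranged from -0.90 to 0.0735. The share (-0.18) turned to 0.92, 1.09 and 1.10 in the same 3 sets and ranged from -0.71 to 0.15. Of 2090 alternatives of 75 named genes and tables that gave an adjusted p, 78 lost a call, 84 gained a call and 0 reversed a call. Differences that did not pass could change sign, such as that of ERBB2 in T>C reads, which ranged from -2.71 to 0.42. The causes were not tested. Dropping both nuclear replicate 1 libraries, the combined scaling and block, the split on other compounds, the gene calls without high-share genes and the sum of 20 or more without them were chosen after seeing the data. Depth limits the cytoplasm most, where many genes had 3 reads or fewer after IBET151-VHL.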
